A study of Mus musculus with 6 samples.

Results

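The peaks described here are open chromatin regions of GL261, a mouse glioma cell line, that lie between genes but not far from one. They are the 5877 consensus ATACseq peaks that were found at all 3 oxygen levels, overlapped no annotated gene body, and had their nearest transcription start site (TSS) more than 2000 bp and at most 50000 bp away. They make up 14.2% of the 41308 consensus peaks of the series and 20.8% of the 28197 found at all 3 levels. A consensus peak is a stretch shared by both replicates over more than 200 bp, merged across conditions. The cells were kept for 16 h at 1% O2 or <0.1% O2, or at 21% O2, with 2 libraries per condition, and they were fixed with formaldehyde before the transposase was added. All groups share the same cultured line, which per the labels stably carries the reporter plasmid pEGFP-N1, and no other allele or drug is named. Being a line in culture, it holds none of the other cells of a tumour.

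The peaks were selected on their presence in every condition, as called in the deposited lists, so regions that were open at only some oxygen levels are outside the set. Of the 10146 consensus peaks in the same position relative to genes, 4269 were not found at all 3 levels. Of these, 1668 were held by both hypoxic conditions and not by normoxia, and 256 by normoxia alone. All 5877 peaks had a value in all 6 libraries, so no member was lost to a filter. The number of peaks called in a library was 33006 and 36188 at 21% O2 and 39348 to 43554 in the hypoxic libraries, and its part in these counts was not tested.

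Intergenic accessible sites of this kind are in many tissues enhancers, stretches that bind transcription factors and act on promoters from a distance, or sites of CTCF, which binds at chromatin loop ends. AP-1, a dimer of Fos and Jun proteins, and TEAD, the DNA-binding partner of YAP and TAZ, are commonly bound at enhancers, and AP-1 is known for its part in opening them after a stimulus. HIF, the oxygen-regulated factor, binds the core letters ACGTG. In ATACseq a transposase cuts open DNA, so more fragments over a region mean a more accessible region.

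The following stretches of 121 bases, on the plus strand of mm10, are from 5 of the intergenic peaks with the largest rises in hypoxia. They are shown because each holds the AP-1 letters TGANTCA, which read the same on both strands, and the match nearest to the summit is in capitals at the centre. Each is named by the gene whose TSS is nearest.
Gm11599, chr1:62678722-62678842: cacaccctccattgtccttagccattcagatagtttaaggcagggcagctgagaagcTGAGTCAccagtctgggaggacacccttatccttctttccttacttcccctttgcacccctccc
Rgs1, chr1:144239386-144239506: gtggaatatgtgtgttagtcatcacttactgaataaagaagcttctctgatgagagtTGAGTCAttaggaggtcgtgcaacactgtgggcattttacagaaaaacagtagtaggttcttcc
Gm8675, chr5:150996693-150996813: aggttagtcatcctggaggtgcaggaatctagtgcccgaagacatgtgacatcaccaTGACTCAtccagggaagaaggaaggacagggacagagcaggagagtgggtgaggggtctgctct
Gm19557, chr19:47491788-47491908: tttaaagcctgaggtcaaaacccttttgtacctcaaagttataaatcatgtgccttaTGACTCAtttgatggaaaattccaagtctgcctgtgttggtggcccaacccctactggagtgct
Map10, chr8:125639817-125639937: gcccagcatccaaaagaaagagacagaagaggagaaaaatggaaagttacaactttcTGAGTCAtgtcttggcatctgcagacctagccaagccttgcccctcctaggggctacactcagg

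The match lay 6.5 bases from the mean summit near Gm11599, 14.5 near Map10, 39.5 near Gm8675, 85.5 near Rgs1 and 130.5 near Gm19557. The next pair is from peaks that were lower at 1% O2 than at 21% O2, and the capitals mark the TEAD letters GGAATG, here on the minus strand and so read as CATTCC. The stretch near 1700112M02Rik also holds 1 AP-1 match at its end, outside the 300 bp around the summit that were searched.
Gm9700, chr3:62026412-62026532: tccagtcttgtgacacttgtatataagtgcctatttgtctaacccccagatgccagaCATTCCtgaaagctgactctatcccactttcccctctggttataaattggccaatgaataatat
1700112M02Rik, chr13:71437842-71437962: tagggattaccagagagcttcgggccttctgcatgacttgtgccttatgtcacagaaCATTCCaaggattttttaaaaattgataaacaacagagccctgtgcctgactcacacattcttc

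The last pair is from peaks near Ddit4 and Fos, genes that hypoxia and other stresses are known to induce. The capitals mark ACGTG on either strand, the core of the hypoxia response element. In the Fos stretch 2 matches overlap as CACGTG. In the Ddit4 stretch 1 of the 2 matches lies outside the 300 bp searched, and the stretch also holds 1 AP-1 match. The match nearest to the mean summit lay 135.5 bases from it near Ddit4 and 70.5 near Fos.
Ddit4, chr10:59964637-59964757: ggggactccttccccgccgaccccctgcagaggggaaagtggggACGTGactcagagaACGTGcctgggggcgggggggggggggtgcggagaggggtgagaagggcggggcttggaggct
Fos, chr12:85455240-85455360: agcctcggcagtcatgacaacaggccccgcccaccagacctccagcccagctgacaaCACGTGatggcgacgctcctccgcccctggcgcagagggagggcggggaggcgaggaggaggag

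Read counts were not used here, since the files are peak lists. Accessibility was taken as the deposited fold of a peak over its local background, the highest in each library, and as the number of fragments stacked at its summit (the summit pileup), which the fold and the p-value fix together. Mean genome coverage was taken as the lowest background among the peaks of a library, recovered from fold and p-value. It was 2.16 and 2.36 at 21% O2 and 2.93 to 3.35 in the hypoxic libraries. By this value depth was higher in hypoxia throughout. As a check of the label, promoter peaks were found at all 3 levels for 17 of 24 glial and glioma genes, for 2 of 6 microglial, 3 of 5 neuronal and 0 of 4 endothelial marker genes. The labels do not say whether replicates came from separate cultures, so p-values measure the spread between these libraries, which may be technical.

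The intergenic peaks had the lowest median fold of 4 classes of peak, and their CpG content was far below that of promoters. The median of the mean fold over the 6 libraries was 9.45, against 9.97 for gene body peaks, 9.99 for intergenic peaks over 50 kb from a TSS, 11.2 for promoter peaks and 10.3 for all 28432 peaks with a value in every library (the ranked peaks). Median width was 706 bp. In the 300 bp around the summit the median GC content was 50.0%, against 49.7% at gene body peaks, 47.3% at intergenic peaks over 50 kb from a TSS and 63.3% at promoter peaks. A CpG observed to expected ratio of at least 0.6, as in CpG islands, was found in 7.69% of them, against 4.68% of gene body peaks, 4.76% of intergenic peaks over 50 kb away and 69.9% of promoter peaks. Repeats covered at least 50% of the window in 5.26% of them, against 2.01%, 9.28% and 0.906% in the same order. Differences between the classes were not tested. The median fold in the 6 libraries was 8.13 and 9.20 (21% O2), 10.4 and 10.2 (1% O2) and 9.69 and 8.91 (<0.1% O2), so the groups overlapped at <0.1% O2. The median summit pileup in fragments was 43 and 55 (21% O2), 80 and 75 (1% O2) and 81 and 67 (<0.1% O2), not scaled to depth. These levels describe peaks that the rule had chosen for being called in every condition.

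The distance to the nearest TSS had a median of 12791 bp, and 3597 of the peaks lay upstream of that TSS. The nearest gene was protein-coding for 2428 peaks. In all, 4447 genes, counted by gene ID, were nearest to at least 1 peak, 3403 of them to only 1, and 27 genes had 5 or more. Just inside the limits, the 158 peaks at 2000 to 2500 bp had a median fold of 8.64, and the 157 intergenic peaks at 1500 to 2000 bp had 8.39. The 149 peaks at 45000 to 50000 bp had a median fold of 10.0, and the 120 at 50000 to 55000 bp had 10.4.

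By the deposited fold few of these peaks were called changed at <0.1% O2, and by summit pileup more were. By either value more of those called were higher than lower. Each was compared between conditions with limma on the log2 fold, quantile-normalized over the 28432 ranked peaks, and was called at a Benjamini-Hochberg adjusted p under 0.05 over all of them and a log2 change of at least 0.6. Quantile normalization gives every library the same distribution of values. A peak called higher or lower is therefore so relative to the other ranked peaks, and a change shared by all peaks would not show. At <0.1% O2 203 of 5877 (3.45%) were called higher than at 21% O2, where 2.67% of all ranked peaks were. Another 105 (1.79%) were called lower, where 2.03% of all ranked peaks were. The median log2 change was 0.02, with the 10th percentile at -0.33 and the 90th at 0.42. The median over all ranked peaks was -0.0047.

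On the summit pileup, quantile-normalized and tested in the same way, 999 (17.0%) were called higher and 403 (6.86%) lower, where 11.9% and 12.1% of all ranked peaks were. Of the 203 called higher by fold, 187 were also called higher by pileup, and of the 105 called lower, 81. Leaving out a library of the <0.1% O2 group left 69 higher and 48 lower without the first replicate and 54 and 25 without the second, where the remaining library is assumed to vary like the other groups. With a replicate overlap of over 400 bp, which left 3960 intergenic peaks by the same rule, 69 were higher and 58 lower by fold. With the trend on GC content subtracted in each library, 162 were higher and 135 lower by fold, and 716 and 584 by pileup. Over the libraries the median local background of peaks, relative to genome coverage, was 2.39 and 2.36 (21% O2), 2.09 and 1.96 (1% O2) and 1.84 and 1.88 (<0.1% O2), and its part in the gap between fold and pileup counts was not tested.

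The peak near Gm11599, a pseudogene, at chr1:62678364-62679250 had folds of 5.70 and 4.76 (21% O2), 12.005 and 14.4 (1% O2) and 14.6 and 12.8 (<0.1% O2). All 4 hypoxic libraries lay above both normoxic ones, with no overlap. At <0.1% O2 its log2 fold was higher by 1.33 (SE 0.15, adjusted p = 0.0021), and its pileup by 2.11 on the log2 scale.

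Rgs1 encodes a regulator of G protein signalling. The peak 9689 bp downstream of its TSS, at chr1:144239011-144239553, had folds of 4.75 and 5.36 (21% O2), 11.9 and 12.7 (1% O2) and 13.5 and 12.2 (<0.1% O2). The log2 change at <0.1% O2 was 1.30 (SE 0.12, adjusted p = 0.0011). Map10 encodes a microtubule-associated protein. The peak 29372 bp upstream of it, at chr8:125639607-125640446, had folds of 5.70 and 6.55, 14.7 and 14.4, and 13.9 and 14.7 in the same order of conditions. Its log2 change at <0.1% O2 was 1.16 (SE 0.10, adjusted p = 0.0011). In both peaks the hypoxic libraries lay above the normoxic ones, and the 1% O2 and <0.1% O2 values overlapped.

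The peak near the pseudogene Gm8675 at chr5:150996466-150996930 had folds of 4.43 and 4.76 (21% O2), 16.1 and 13.5 (1% O2) and 12.5 and 11.1 (<0.1% O2). The log2 change was 1.33 at <0.1% O2 and 1.51 at 1% O2. The other 4 of the 8 largest rises were near Gm19557, Gm48939, Psma6, which encodes a proteasome subunit, and Gapvd1, which encodes a protein of endocytosis. Their log2 changes at <0.1% O2 were 1.08 to 1.32. Those near Psma6 and Gm48939 held no AP-1 match in the window searched. Near Psma6 the folds were lower throughout, from 3.13 and 3.33 at 21% O2 to 6.62 and 7.32 at <0.1% O2. All 8 were also called higher by summit pileup, but a rise by pileup was part of the rule that named them.

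**Figure D1:**
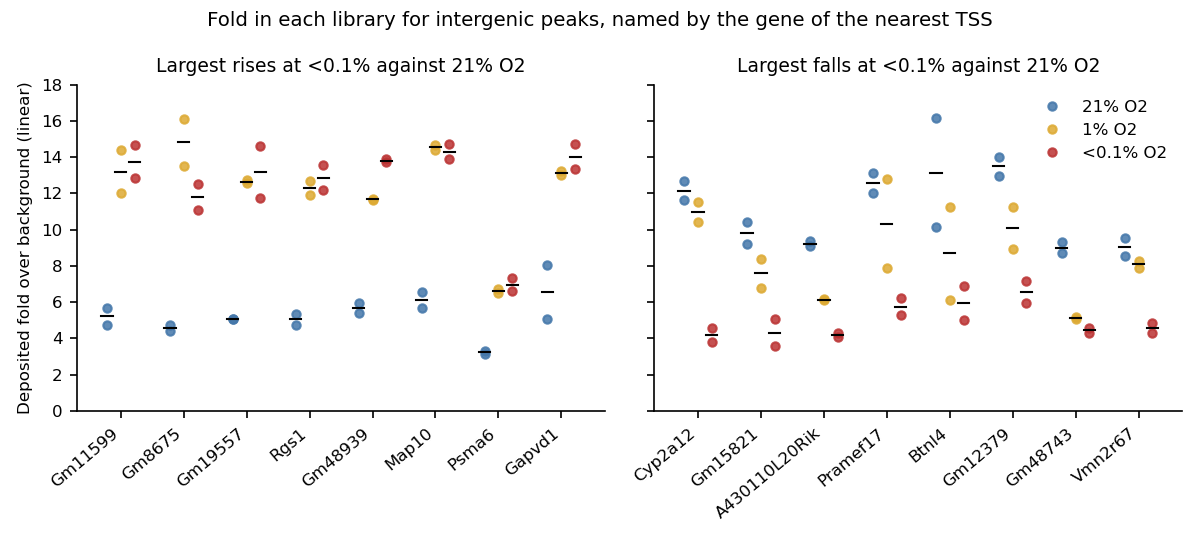
Deposited fold over local background (y axis, linear) in each of the 6 libraries for the 8 intergenic peaks with the largest rises (left) and the 8 with the largest falls (right) at <0.1% O2 against 21% O2, named by the nearest gene. Points are libraries, coloured by oxygen level, and black lines are means of 2. In the rises both hypoxic groups lie above the normoxic one, from 5.70 and 4.76 to 14.6 and 12.8 at <0.1% O2 near Gm11599. In the falls the mean at 1% O2 lies between the others, as near A430110L20Rik, where the points are 9.38 and 9.07, 6.16 and 6.12, and 4.09 and 4.28.

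Of the 8 largest falls at <0.1% O2, 6 were in windows at least 50% covered by repeats, and none held an AP-1 match. The largest was near Cyp2a12, a cytochrome P450 gene, at chr7:26986520-26988420, in a window wholly of repeat sequence. Its folds were 12.7 and 11.6 (21% O2), 10.4 and 11.5 (1% O2) and 4.60 and 3.83 (<0.1% O2). Only the <0.1% O2 libraries were low, and the log2 change was -1.59 (SE 0.15, adjusted p = 0.0011). Its summit pileup was 38 to 45 fragments in the first 4 libraries and 19 and 15 at <0.1% O2.

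Near Vmn2r67, a vomeronasal receptor gene, the folds were 8.55 and 9.53 (21% O2), 7.89 and 8.26 (1% O2) and 4.83 and 4.30 (<0.1% O2), a log2 change of -1.06 (SE 0.14, adjusted p = 0.0029). Near Btnl4, a butyrophilin-like gene, the replicates were far apart, 16.1 and 10.1 (21% O2), 6.11 and 11.3 (1% O2) and 6.90 and 5.02 (<0.1% O2). Near the lincRNA A430110L20Rik, at chr1:181232317-181232918 and in a window with no repeat, the folds were 9.38 and 9.07 (21% O2), 6.16 and 6.12 (1% O2) and 4.09 and 4.28 (<0.1% O2). There the 3 groups were in order and did not overlap, and the log2 change at <0.1% O2 was -1.203 (SE 0.15, adjusted p = 0.0024).

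Over all the intergenic peaks, 309 had windows at least 50% covered by repeats. Of these, 26 (8.41%) were called lower at <0.1% O2 by fold and 3 (0.971%) higher. Of the other 5568, 79 (1.42%) were called lower and 200 (3.59%) higher. The part of repeat sequence in the falls was not tested.

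At 1% O2 163 (2.77%) were called higher than at 21% O2 and 77 (1.31%) lower by fold, where 1.97% and 1.04% of all ranked peaks were. The median log2 change was 0.0061. By summit pileup 639 (10.9%) were higher and 501 (8.53%) lower, where 8.1% and 7.84% of all ranked peaks were. The fold counts rested on both 1% O2 libraries, with 17 higher and 1 lower without the first and 13 and 3 without the second. Without the first 21% O2 library 143 were higher and 42 lower, and with the replicate overlap of over 400 bp 45 and 44 were.

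The largest rise at 1% O2 was the one near Gm8675. The one near the small nuclear RNA gene Gm24259, at chr9:108759928-108760282, had folds of 5.70 and 5.66 (21% O2), 13.2 and 15.03 (1% O2) and 10.8 and 9.48 (<0.1% O2). Its log2 change was 1.10 at 1% O2 and 0.78 at <0.1% O2. The largest fall was near the lincRNA 1700112M02Rik, at chr13:71437406-71438105. Its folds were 9.78 and 11.7 (21% O2), 5.86 and 5.01 (1% O2) and 12.4 and 10.1 (<0.1% O2). Only the 1% O2 libraries were low, with a log2 change of -1.18 (SE 0.14, adjusted p = 0.0029) at 1% O2 and -0.0018 at <0.1% O2.

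The comparisons of both hypoxia levels use the same normoxic libraries, so their values are only set side by side. The 203 peaks called higher at <0.1% O2 by fold had a median log2 change of 0.73 there and 0.59 at 1% O2. The 105 called lower at <0.1% O2 had -0.73 there and -0.38 at 1% O2. The 77 called lower at 1% O2 had -0.73 there and -0.43 at <0.1% O2.

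The levels were then compared with each other directly. By fold 6 (0.102%) were called higher at <0.1% O2 than at 1% O2 and 6 lower, where 0.0985% and 0.162% of all ranked peaks were, and 574 and 471 had an unadjusted p under 0.05. By summit pileup 440 (7.49%) were higher and 106 (1.80%) lower, where 5.16% and 3.76% of all ranked peaks were. With the GC trend subtracted the pileup counts were 161 and 131. The pileup counts were 289 higher without the first <0.1% O2 library, and 57 lower without the first 1% O2 library.

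The fold counts between the levels depended on each library. Without either 21% O2 library 11 were higher, and 17 or 18 were lower. With any 1 of the hypoxic libraries left out, limma called 0 higher and at most 1 lower, without the first <0.1% O2 library. In those 4 fits 338 to 410 were higher and 311 to 424 lower at an unadjusted p under 0.05.

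Near 1700112M02Rik the log2 change at <0.1% O2 against 1% O2 was 1.18 (SE 0.14, adjusted p = 0.025). Near the pseudogene Gm9700, at chr3:62026304-62026738, the folds were 10.4 and 14.3 (21% O2), 6.62 and 8.01 (1% O2) and 12.1 and 11.7 (<0.1% O2), with a log2 change between the levels of 0.85 (adjusted p = 0.043). Both have low folds only at 1% O2. Near Gm12637, a lincRNA gene, the order was the reverse, with folds of 6.65 and 7.44 (21% O2), 11.97 and 11.5 (1% O2) and 4.37 and 5.26 (<0.1% O2), and the log2 change between the levels was -1.12 (adjusted p = 0.025).

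By pileup, the change at 1% O2 was higher in peaks of higher GC content, and the change between the hypoxia levels was lower in them. The peaks were put in 4 groups of 1386 to 1521 by the GC content of their window. At 1% O2 against 21% O2 the median log2 pileup change was -0.12 in the group of lowest GC, 0.02 and 0.07 in the next and 0.14 in the highest. At <0.1% O2 it was 0.16, 0.16, 0.11 and 0.05. Between the levels it was 0.30, 0.14, 0.04 and -0.09, and of the 440 called higher at <0.1% O2 than at 1% O2 by pileup 267 were in the group of lowest GC. By fold the spread between the groups was smaller, 0.08 to -0.03 between the levels. Differences between the GC groups were not tested, nor was the part of GC content in the calls.

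**Figure D2:**
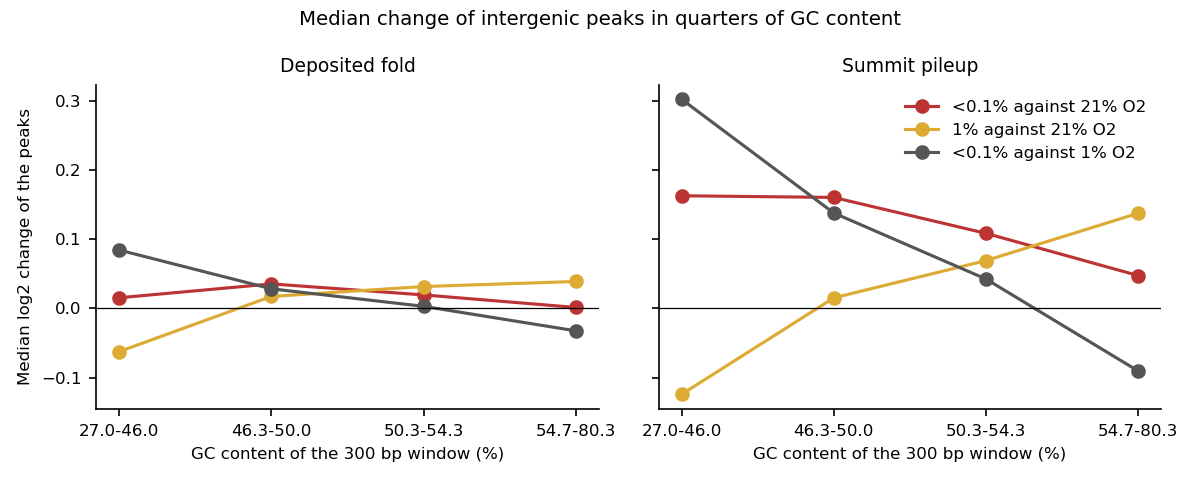
Median log2 change (y axis) of the intergenic peaks in 4 groups by the GC content of the 300 bp window (x axis, percent) for the 3 comparisons, on the deposited fold (left) and the summit pileup (right). Lines join the groups. By pileup the change between the 2 hypoxia levels goes from 0.30 at the lowest GC to -0.09 at the highest, while at 1% O2 against 21% O2 it goes from -0.12 to 0.14.

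AP-1 letters stood in most of the intergenic peaks called higher at <0.1% O2 and in few of those called lower. A match to TGANTCA within 300 bp around the summit was found in 1934 of 5877 intergenic peaks (32.9%, exact binomial 95% interval 31.7 to 34.1, which covers counting error only), against 35.4% of gene body peaks, 37.9% of intergenic peaks over 50 kb from a TSS, 8.98% of promoter peaks and 22.9% of all ranked peaks. The same letters reversed without complementing, a control of like composition, were found in 8.92%. Among the 203 peaks called higher at <0.1% O2 117 held AP-1 (57.6%, 50.5 to 64.5), and among the 105 called lower 15 did (14.3%, 8.22 to 22.5). At 1% O2 it was 84 of 163 called higher (51.5%, 43.6 to 59.4) and 10 of 77 called lower (13.0%, 6.41 to 22.6). The intervals of higher and lower calls did not overlap at either level, and no test of the difference was run. By pileup, 55.6% of the 999 called higher at <0.1% O2 and 14.4% of the 403 called lower held the letters, and at 1% O2 50.2% of the 639 called higher and 21.6% of the 501 called lower. Without the second <0.1% O2 library 75.9% of the 54 called higher by fold did and 8.00% of the 25 called lower, and with the GC trend subtracted 56.8% of 162 called higher. At 1% O2, without the first 1% O2 library 76.5% of 17 called higher and 0 of 1 called lower by fold held the letters, and without the second 69.2% of 13 and 33.3% of 3.

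The median distance of AP-1 matches from the summit was 44.5 bases over all the intergenic peaks and 29.5 in those called higher at <0.1% O2. Of the 1934 peaks with the letters 6.05% were called higher at <0.1% O2 and 0.776% lower, and of the 3943 without them 2.18% and 2.28%. By summit pileup 28.7% of the peaks with AP-1 were called higher and 3.00% lower, and 11.3% and 8.75% of those without. The median log2 pileup change was 0.32 with the letters and 0.03 without. Peaks with AP-1 also had a higher median fold, 10.3 against 9.005, and a GC content of 49.0% against 50.7%. The search was centred on the mean of the 6 summits. In peaks called higher at <0.1% O2 by fold the summits spanned a median of 93 bases, and in those called lower 137. The median of the mean pileup was 61.3 fragments in the former and 42.3 in the latter. Windows at least 50% covered by repeats made up 1.48% and 24.8% of them. The part of these differences in the motif shares was not tested. A match is a description of the sequence, and no binding was measured.

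TEAD letters, GGAATG on either strand, were found in 20.9% of the intergenic peaks (19.9 to 22.01) and in 8.83% when reversed. They were found in 22.9% of gene body peaks, 23.8% of intergenic peaks over 50 kb away, 11.9% of promoter peaks and 17.5% of all ranked peaks. Among the 77 called lower at 1% O2 32 held them (41.6%, 30.4 to 53.4), and among the 163 called higher at 1% O2 24 did (14.7%, 9.67 to 21.1). At <0.1% O2 the shares were 22.2% of those called higher and 22.9% of those called lower. Of the peaks named for their rise between the hypoxia levels, those near 1700112M02Rik and Gm9700 held the letters, and that near A730020M07Rik, a lincRNA gene, which was also low only at 1% O2, did not. By pileup the shares at 1% O2 were 32.5% of the 501 called lower and 16.0% of the 639 called higher. Without the first 1% O2 library 23.5% of the 17 called higher by fold and the 1 called lower held the letters, and without the second 7.69% of 13 and all 3, so these shares rest on both libraries.

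CTCF letters were found in 242 intergenic peaks (4.12%, 3.62 to 4.66), against 1.78% of intergenic peaks over 50 kb from a TSS, 2.65% of gene body peaks, 1.32% of promoter peaks and 2.36% of all ranked peaks. The share was 5.70% in the 894 peaks 2000 to 5000 bp from a TSS and 3.55% in the 1830 peaks over 20000 bp away. Of the 242, 8 (3.31%) were called higher and 1 (0.413%) lower at <0.1% O2 by fold, against 3.46% and 1.85% of those without the letters. By pileup 24 (9.92%) were called higher and 11 (4.55%) lower, against 17.3% and 6.96%, and these differences were not tested. At 1% O2 their median log2 fold change was 0.17, against -0.0012 for those without the letters. By fold 4 (1.65%) were called higher there and 1 (0.413%) lower, against 2.82% and 1.35%. By pileup 15 (6.20%) were called higher and 2 (0.826%) lower, against 11.1% and 8.86%. ACGTG was found in 16.3% (15.4 to 17.3) of the intergenic peaks and its letters reversed, which hold no CpG, in 39.3%. It was found in 15.3% of those called higher at <0.1% O2 and in 19.0% of those called lower, and it occurred in 15.5% of gene body peaks, 14.9% of intergenic peaks over 50 kb away, 25.7% of promoter peaks and 20.3% of all ranked peaks. Every CACGTG, found in 5.31%, also holds ACGTG.

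**Figure D3:**
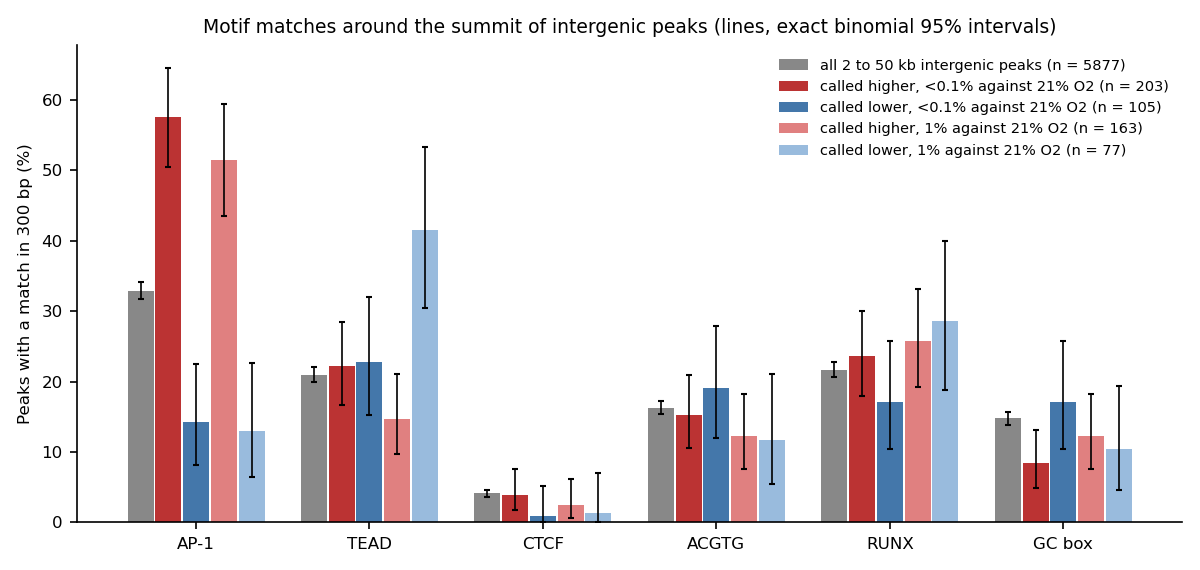
Share of intergenic peaks with a match within 300 bp around the summit (y axis, percent) for 6 motifs (x axis), over all 5877 peaks and over those called by fold, with exact binomial 95% intervals as lines. AP-1 stands at 57.6% of peaks called higher and 14.3% of peaks called lower at <0.1% O2, and TEAD at 41.6% of peaks called lower at 1% O2.

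The calls were then set out by class of peak. At <0.1% O2 17.0% were called higher by pileup (16.0 to 17.98), against 19.0% of 8570 gene body peaks, 15.5% of 841 intergenic peaks over 50 kb away and 4.31% of 12909 promoter peaks. The shares called lower were 6.86%, 5.97%, 7.37% and 19.1% in the same order. By fold the shares called higher were 3.45%, 4.42%, 2.50% and 0.992%, and those called lower 1.79%, 1.02%, 2.97% and 2.74%. These are counts with counting intervals, and the differences between the classes were not tested. With the GC trend subtracted the median log2 pileup change at <0.1% O2 was 0.0031 for the intergenic peaks and 0.03 for gene body peaks. It was -0.08 for intergenic peaks over 50 kb away and -0.04 for promoter peaks. Without that step the medians were 0.12, 0.15, 0.09 and -0.18 in the same order.

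**Figure D4:**
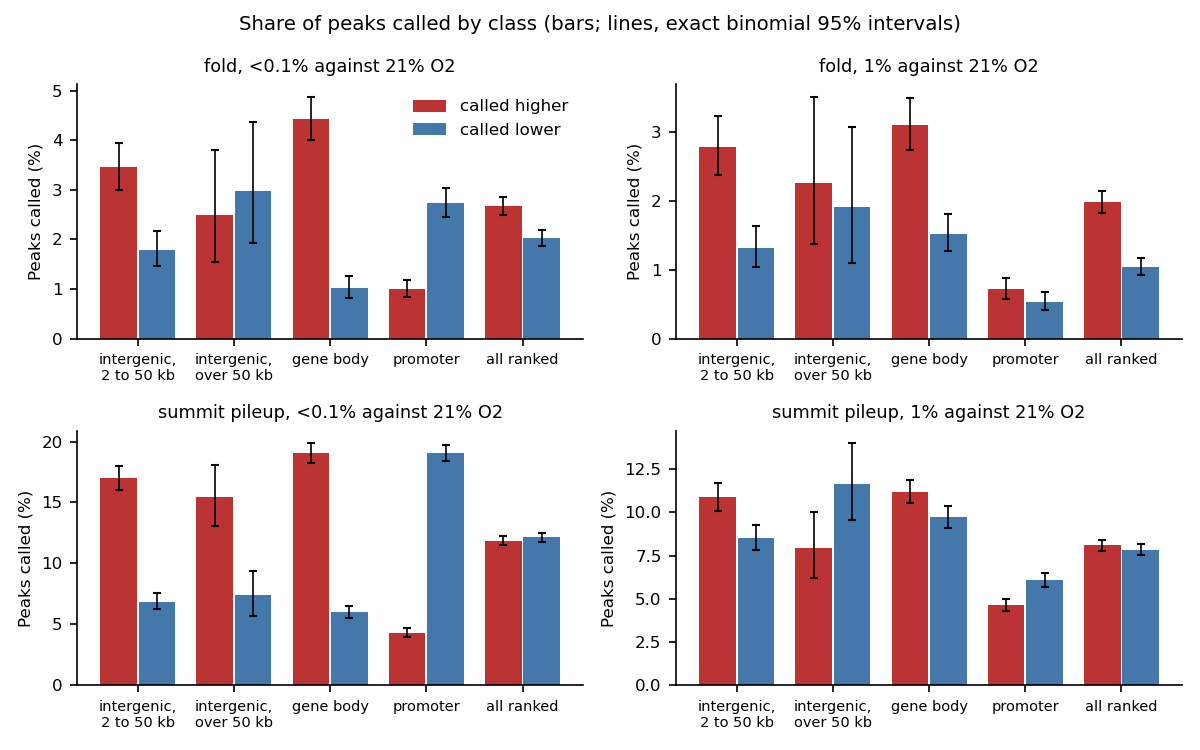
Percent of peaks called (y axis, each panel with its own scale from 0) by class (x axis) for <0.1% O2 and 1% O2 against 21% O2, by deposited fold (top) and summit pileup (bottom), with exact binomial 95% intervals as lines. By pileup at <0.1% O2 17.0% of the intergenic peaks 2 to 50 kb from a TSS are called higher and 4.31% of promoter peaks, while 6.86% and 19.1% are called lower.

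The counts were then set out by position relative to the TSS. At <0.1% O2 4.70% of the 894 peaks at 2000 to 5000 bp were called higher by fold, 3.31% at 5000 to 10000 bp, 3.18% at 10000 to 20000 bp and 3.22% beyond. By pileup the shares in the same bins were 17.2%, 18.1%, 16.3% and 16.7%. Of peaks upstream of the nearest TSS 3.59% were called higher by fold, and of those downstream 3.25%. Where the nearest gene was protein-coding 4.12% were called higher by fold, and otherwise 2.99%. Differences between these strata were not tested.

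Neighbouring peaks share part of the local background by which the fold is divided. For 213 pairs of neighbouring intergenic peaks less than 2000 bp apart, Spearman's rho between their changes at <0.1% O2 was -0.490 by fold and 0.301 by pileup. For 518 pairs 5000 to 10000 bp apart it was 0.048 and 0.185. A promoter peak at the nearest gene was ranked for 2328 of the intergenic peaks, of 1714 genes. Over these rho between the change of the peak and of the promoter was -0.0206 by fold and 0.176 by pileup, and at 2000 to 5000 bp it was -0.326 and 0.309. The pairs share libraries, and peaks of the same gene share a promoter, so these are descriptions with no test. Of 397 such intergenic peaks called higher at <0.1% O2 by pileup, the promoter was called higher for 33 (8.31%) and lower for 47 (11.8%). Of 141 called lower, it was called lower for 30 (21.3%) and higher for 1 (0.709%). Over all 2328 pairs the promoter was called higher in 4.64% and lower in 17.3%, and no difference from these shares was tested.

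Lists of genes of known programmes were compared with the nearest genes of the peaks. The counts below stand against 3.45% of the intergenic peaks called higher and 1.79% lower at <0.1% O2 by fold (2.67% and 2.03% of all ranked peaks), and 17.0% and 6.86% by pileup (11.9% and 12.1%). The lists hold few peaks, and no difference of a list from these shares was tested. Of 34 HIF target and oxygen sensing genes 9 had an intergenic peak nearest to them, 18 peaks in all. At <0.1% O2 limma called 0 of the 18 higher and 1 lower by fold, with 2 higher and 2 lower at an unadjusted p under 0.05, and by pileup 5 were called higher and 1 lower. Neither Slc2a1, the glucose transporter, nor Vegfa, the angiogenic growth factor, was the nearest gene of any. Of 20 AP-1 and immediate early genes 8 had 12 peaks, of which limma called 0 by fold, with 3 higher at an unadjusted p under 0.05, and 4 were called higher by pileup. Of 17 ATF4 and unfolded protein response genes 3 had 5 peaks, with 0 called by fold, 1 higher at an unadjusted p under 0.05, and 2 called higher and 1 lower by pileup.

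Of 24 glial and glioma identity genes 9 had 11 peaks, with 1 called higher by fold, and 3 higher and 1 lower by pileup. Of 21 matrix, adhesion and TEAD target genes, of which 2 were matched through older symbols, 6 had 13 peaks. Limma called 0 of these by fold, with 2 higher and 1 lower at an unadjusted p under 0.05, and by pileup 3 were called higher and 1 lower. Of 15 markers of microglia, neurons and endothelium 2 had 1 peak each, near Map2 and Csf1r, and neither was called by fold or pileup. At 1% O2 the counts called by pileup were 3 higher and 3 lower for the HIF list, 4 and 0 for AP-1, 0 and 1 for ATF4, 2 and 3 for the glial list, and 3 and 3 for the matrix list, where 10.9% of the intergenic peaks were higher and 8.53% lower (8.1% and 7.84% of all ranked peaks). Of the marker peaks 1 was lower at <0.1% O2 at an unadjusted p under 0.05 by fold, near Map2, with a log2 change of -0.29 (adjusted p = 0.11). Its log2 pileup change had the other sign, 0.46 (adjusted p = 0.013), which passed the p but not the size.

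Ddit4, which encodes an inhibitor of mTORC1 signalling, was the HIF target with the most peaks, 6 from 18052 bp upstream to 31657 bp downstream of its TSS. The peak 12542 bp upstream, at chr10:59964376-59965393, had folds of 9.22 and 10.1 (21% O2), 10.7 and 10.9 (1% O2) and 10.6 and 10.5 (<0.1% O2). Its summit pileups were 150 and 237, 486 and 412, and 501 and 412 fragments in the same order. All hypoxic libraries were above the normoxic ones by either value, but the log2 change at <0.1% O2 was 0.06 by fold (adjusted p = 0.76) and 0.92 by normalized pileup (adjusted p = 3.19e-09).

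The Ddit4 peak 7902 bp downstream had pileups of 87 and 106 (21% O2), 331 and 243 (1% O2) and 305 and 306 (<0.1% O2), a log2 change of 1.33 at <0.1% O2 (adjusted p = 1.21e-09), and its log2 fold change was 0.50 (adjusted p = 0.051). The one 6541 bp upstream had a log2 pileup change of 1.18 (adjusted p = 1.28e-07) and a log2 fold change of 0.22. The peak 18052 bp upstream was called lower by fold, from 4.45 and 4.22 at 21% O2 to 2.88 and 2.43 at <0.1% O2, while its log2 pileup change was -0.13 (adjusted p = 0.54). In all, 3 of the 6 were called higher by pileup at <0.1% O2, and none by fold.

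Fos encodes a subunit of AP-1 and had 3 peaks. The one 17926 bp upstream, at chr12:85455001-85455964, had folds of 12.9 and 15.1 (21% O2), 13.7 and 14.9 (1% O2) and 14.0 and 14.8 (<0.1% O2), which overlap. Its pileups were 124 and 176, 372 and 362, and 368 and 337, which do not, and the log2 pileup change at <0.1% O2 was 0.93 (adjusted p = 6.72e-09). Its 2 downstream peaks had log2 pileup changes of 0.56 and 0.96, of which the second, 23557 bp away, was called. The pileups are printed unscaled, and the hypoxic libraries were deeper, while the log2 changes are of normalized values.

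**Figure D5:**
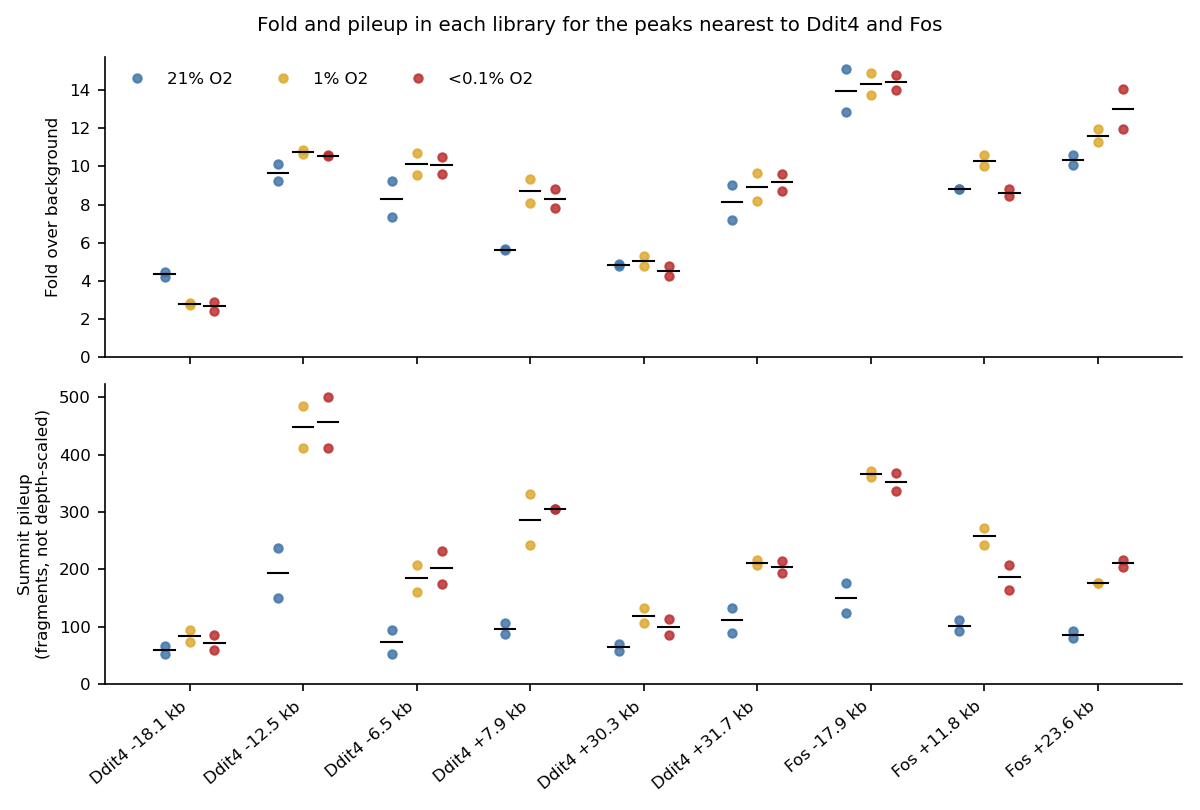
Deposited fold (top) and summit pileup in fragments (bottom, not scaled to depth) in each library for the 6 intergenic peaks nearest to Ddit4 and the 3 nearest to Fos, labelled on the x axis by distance from the TSS in kb (minus, upstream). Points are libraries and black lines are means of 2. At the Ddit4 peak 12.5 kb upstream the pileup goes from 150 and 237 at 21% O2 to 501 and 412 at <0.1% O2, while the fold goes from 9.22 and 10.1 to 10.6 and 10.5.

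Near Id1, which encodes an inhibitor of basic helix-loop-helix factors and was the 1 glial list gene with a peak called by fold, the peak 8931 bp upstream was called by both values, with folds of 4.37 and 5.17 (21% O2), 11.8 and 10.9 (1% O2) and 10.1 and 7.69 (<0.1% O2) and a log2 change at <0.1% O2 of 0.87 (SE 0.15, adjusted p = 0.0081). Near Sparc, which encodes a matrix glycoprotein, the peak 14482 bp upstream had pileups of 72 and 89 (21% O2), 331 and 315 (1% O2) and 308 and 263 (<0.1% O2). Its log2 pileup change at <0.1% O2 was 1.48 (adjusted p = 2.66e-11) and its log2 fold change 0.17 (adjusted p = 0.13). The other Sparc peaks, 4786 bp upstream and 32062 bp downstream, had log2 pileup changes of -0.00032 and -0.05 at <0.1% O2, neither called. The peaks near Mmp9, a matrix metalloproteinase gene, and Ankrd1, a TEAD target gene, were called higher by pileup at <0.1% O2, with log2 changes of 0.84 and 0.75. Ccn1, which encodes a matricellular protein, had 3 peaks downstream. The one of highest fold, 21077 bp away, had pileups of 194 and 247 (21% O2), 196 and 181 (1% O2) and 216 and 202 (<0.1% O2). Its log2 pileup change was -0.69 at 1% O2, called lower, and -0.38 at <0.1% O2, under the size. The other 2 had -0.70, called lower, and -0.45, under the size, at 1% O2, and the log2 fold changes of the 3 at 1% O2 were -0.32 to 0.17, not called. Near Vim, the gene of the intermediate filament vimentin and the 1 glial list gene with a peak called lower by pileup at <0.1% O2, the peak 8761 bp downstream was called lower by pileup, with a log2 change of -0.95, and not by fold, with -0.41 (adjusted p = 0.088).

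Among the other AP-1 and immediate early genes, Klf4, a zinc finger factor gene named here after its values were seen, had a peak with folds of 8.16 and 7.77 (21% O2), 11.6 and 10.1 (1% O2) and 12.3 and 11.6 (<0.1% O2). Its log2 change at <0.1% O2 of 0.51 (adjusted p = 0.025) passed the p but not the size, and its log2 pileup change was 1.09. The nuclear receptor gene Nr4a1 had a peak 12802 bp upstream with pileups of 187 and 251 (21% O2), 410 and 449 (1% O2) and 458 and 374 (<0.1% O2), and a log2 pileup change of 0.58, just under the size. Its other peak, 7281 bp upstream, had a log2 pileup change of -0.33 (adjusted p = 0.0083), also under the size, and a log2 fold change of -0.18. The peaks near Ier3 and Egr1 had log2 pileup changes of 0.22 and 0.09 at <0.1% O2, neither called.

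Among further HIF targets, Stc2, which encodes a secreted glycoprotein, had folds of 7.64 and 7.07 (21% O2), 10.3 and 9.08 (1% O2) and 10.8 and 11.7 (<0.1% O2). Its log2 change at <0.1% O2 was 0.54 by fold (adjusted p = 0.033), under the size, and 0.65 by pileup, which was called. Near P4ha1, a collagen prolyl hydroxylase gene named after its values were seen, 1 peak was called higher and 1 lower by pileup at <0.1% O2, with log2 changes of 0.92 and -0.89. Near P4ha2, its paralog, the log2 pileup change was 0.30 at 1% O2 and 0.17 at <0.1% O2, neither called. In the ATF4 list both peaks upstream of Sesn2, which encodes a stress-induced regulator of mTORC1, were called higher by pileup at <0.1% O2, with log2 changes of 0.65 and 0.66, and not by fold. Near Slc3a2, which encodes the heavy chain of amino acid transporters, the pileup was called lower at both levels, with log2 changes of -0.64 at <0.1% O2 and -1.19 at 1% O2, while its log2 fold changes were 0.05 and -0.17. Both peaks near Phgdh, a serine synthesis gene, had log2 pileup changes of -0.10 and -0.13 at <0.1% O2, neither called.

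Of the glial genes, Nfix, a nuclear factor I gene, had pileups of 81 and 107 (21% O2), 243 and 267 (1% O2) and 225 and 196 (<0.1% O2), with log2 changes at <0.1% O2 of 0.86 by pileup (adjusted p = 9.52e-07) and 0.17 by fold. S100b, a calcium-binding protein gene, had folds of 5.47 and 6.16 (21% O2), 9.45 and 10.6 (1% O2) and 8.44 and 8.87 (<0.1% O2). Its log2 fold change at <0.1% O2 was 0.52 (adjusted p = 0.036), under the size, and its log2 pileup change of 0.78 was called. The peak near Hes1, the gene of a helix-loop-helix factor, had a log2 pileup change of 0.24 at <0.1% O2 and was not called.

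Fold and pileup changes were also set against each other by how isolated a peak was. For the 478 intergenic peaks with another ranked peak within 2000 bp, Spearman's rho between the fold and the pileup change at <0.1% O2 was 0.647. For the 747 with none within 50000 bp it was 0.872. The gene with the most peaks was Gm25888 with 8, and 7 genes, Gm26682 and Ddit4 among them, had 6. The symbol Gm41392 had 7, which belong to 2 lincRNA genes of that name with 4 and 3. None of the 8 near Gm25888 was called by fold, with log2 changes of -0.49 to 0.26 at <0.1% O2, and 1 was called lower by pileup, with -0.64. Of the 6 near Gm26682, 3 were called lower by pileup, with log2 changes of -1.14, -0.78 and -0.67, and none was called higher by it. Of the 4 near the first of the Gm41392 genes, ENSMUSG00000116253.1, 1 was called higher, with a log2 change of 0.96, and 1 lower, with -0.73 by fold and 0.06 by pileup.

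The highest folds of all were in 3 peaks near Rny3, a Y RNA gene, and in 1 each near the microRNA gene Gm25352 and N6amt1, which encodes a methyltransferase. In these 5 the folds ran from 19.8 to 37.1 over the 6 libraries. Of the 3 near Rny3, that at chr6:47748328-47748858 had folds of 27.7 and 30.4 (21% O2), 28.3 and 29.8 (1% O2) and 22.8 and 19.8 (<0.1% O2). Its log2 change at <0.1% O2 was -0.51 (adjusted p = 0.0021), which passed the p but not the size, and its pileup was called lower.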

How the data were processed

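ATACseq was performed on formaldehyde-fixed GL261 cells in 6 libraries, 2 for each of 3 oxygen levels. Per the submitters' processing notes and the study's methods, the authors trimmed reads with Trimmomatic, aligned them to mm10 with Bowtie2 2.2.5, kept alignments with a mapping quality over 30, removed duplicates with Picard, and called peaks in each library with MACS2 2.1.1.2 at a q-value of 0.001, without pooling replicates. Blacklisted regions were removed, and deepTools is also named.

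The files deposited by the authors are peak lists. For each peak the authors' caller gave a fold, the ratio of the summit pileup to its local background, and the −log10 of the p-value and of the q-value. The score deposited by the authors is the q-value on that scale as a whole number, and position and summit are in other fields. Summit pileups were recovered as the whole number of fragments that gives both the deposited fold and the deposited −log10 p-value, within a relative error under 0.0001, for 100% of peaks. Read counts were not used here, so the count model of the study was not run.

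Replicate intersections over 200 bp were merged across conditions with Python 3.11.15. TSS and gene bodies were those of GENCODE M21 basic, and sequence, GC content and repeats were from the RefSeq GRCm38.p6 genome, whose chromosome lengths are those of mm10. The highest peak of each library was taken in each consensus peak. Log2 fold and log2 pileup were quantile-normalized over 28432 peaks found in all 6 libraries and fitted with limma 3.58.1 in R 4.3.3 (3 groups, eBayes with a trend), with Benjamini-Hochberg adjustment over all of them. The code was tested on simulated data. Motifs were searched on both strands in 300 bp around the mean summit.

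Peaks were named by the nearest gene: among those called and moving the same way by pileup, the 8 largest rises and falls at <0.1% against 21% O2, 4 at 1% against 21% O2 and 3 between the levels, then the 5 of highest fold, the 3 gene symbols with the most peaks (ties by fold), and up to 4 genes per list, older symbols being matched through the RefSeq table. The peaks and lists were chosen with earlier results of these data known. Alternatives were other values, normalizations, GC correction, replicate blocks, thresholds, overlaps, a stricter q-value, low-fold and annotation filters, window lengths and leaving out each library. Replicate numbers were not taken to pair libraries. Intervals are exact binomial and cover counting error only. The peaks of some listed genes are not reported here by name.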

Additional observations from a re-analysis of the deposited data

Results flagged for a closer look

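For 12 intergenic peaks the change at <0.1% O2 differed from that at 1% O2, by limma's direct test of <0.1% against 1% O2 on the fold. Of the 6 higher at <0.1% O2, the log2 difference was 1.18 near 1700112M02Rik, 1.00 near A730020M07Rik, 0.85 near Gm9700, 0.82 near Brpf3, 0.77 near Gm6450 and 0.74 near Gm47823. Near A730020M07Rik, a lincRNA gene, the folds were 7.32 and 6.87 (21% O2), 4.17 and 5.39 (1% O2) and 9.70 and 7.92 (<0.1% O2). Near Brpf3, a gene of a histone acetyltransferase subunit, they were 9.81 and 9.96, 7.89 and 8.76, and 15.1 and 11.6 in the same order.

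Of the 6 lower at <0.1% O2, the log2 difference was -1.22 near Cyp2a12, -1.12 near Gm12637, -0.91 near Gm47455, -0.82 near AC127314.1, -0.78 near Gm32390 and -0.74 near BC051077. Near Gm47455 the folds were 6.33 and 7.44 (21% O2), 11.99 and 9.77 (1% O2) and 5.06 and 5.26 (<0.1% O2). Near Gm32390 they were 19.3 and 21.1, 21.7 and 19.6, and 12.2 and 9.80. By pileup 11 of the 12 were also called in the same direction, all but the one near AC127314.1 (log2 difference -0.47, adjusted p = 0.058 by limma). With any 1 hypoxic library left out, at most 1 of the intergenic peaks was called between the levels by fold.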

How the results depend on the processing

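Counts are given as higher and lower for <0.1% against 21% O2, 1% against 21% O2 and <0.1% against 1% O2 in turn. They were 999 and 403, 639 and 501, 440 and 106 on the summit pileup, and 1133 and 485, 774 and 599, 479 and 143 on the −log10 q-value. An adjusted p alone gave 483 and 262, then 322 and 154, and percentile ranks gave 1292 and 944, 1220 and 1103, 993 and 797. A replicate overlap over 400 bp, which leaves 3960 peaks, gave 69 and 58, 45 and 44, and 2 higher between the levels. Between the levels 10 were lower with median centring, 1 higher and 3 lower with GC correction, 3 and 3 with protein-coding genes only, and 161 higher by pileup with GC correction. Without the eBayes trend limma called 0 and 0 between the levels, with 609 and 496 at an unadjusted p under 0.05. The median log2 changes were 0.123, 0.0231 and 0.0943 by pileup, 0.138, 0.0259 and 0.115 by q-value, and 0.0035, -0.0301 and 0.0396 with the 400 bp overlap. With GC correction the median was -0.0117 for <0.1% against 21% O2 and -0.0135 between the levels. For 1% against 21% O2 it was -0.0089 with median centring and 0.021 with protein-coding genes. In 200 bp windows AP-1 was found in 27.5%, TEAD in 14.6%, CTCF in 3.40% and ACGTG in 11.2%. The causes were not tested.

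Leaving out each library gave 54 to 279 higher and 25 to 123 lower for <0.1% against 21% O2, 13 to 236 and 1 to 93 for 1% against 21% O2, and 0 to 11 and 0 to 18 between the levels, with median changes of 0.0186 to 0.0289, 0.00081 to 0.0109 and 0.0160 to 0.0285. By pileup the ranges were 956 to 1034 and 342 to 413, 578 to 689 and 452 to 529, and 289 to 451 and 57 to 117. The pairing check gave correlations of -0.0552 to 0.0222 between same-numbered libraries by fold. With the replicate block 2 were higher between the levels, and 1 with the block and GC correction, whose medians were -0.0117 for <0.1% against 21% O2 and -0.0135 between the levels. The block moved no other count by more than 1.5 times.

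By pileup the direction turned near Fos, to 0.93 (0.86 by q-value), near Slc3a2, to -0.64, and at the lower of the called peaks near Gm41392, to 0.058. Of 32 called values of named peaks 29 kept their call and direction with GC correction, 30 with the block and 21 to 32 without single libraries. Depth limits the pileups of low peaks, such as 17 and 15 fragments near Gm11599 at 21% O2.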
